A study of Mus musculus with 9 samples.

Results

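A group of 82 protein-coding genes was close to silent in mouse embryonic fibroblasts (MEFs) kept in iso-osmolar medium and gave reads after the medium was raised to 500 mOsm. The genes were chosen by level alone, as FPKM (fragments scaled by gene length and by the library's total). A member had a mean FPKM under 0.2 over the 3 iso-osmolar libraries and of at least 0.6 over the 3 libraries at 500 mOsm. Symbols that begin with Hist, Hsp, Zfp, Slc, Col, Sema, Itg, Mmp, Ccl or Cxcl were left out. Of 35275 genes listed, 22026 were protein-coding and 10459 of those, outside the 10 symbol families, were under the ceiling in the control libraries. The 82 members made up 0.784% of these near-silent genes. Another 8 genes met both limits but belonged to the families left out. The rise from iso-osmolar medium to 500 mOsm is therefore what chose the members, and it is given below as a description with no test.

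The cells were MEFs of strain C57Bl/6, with no allele or knockdown named in the labels, grown in DMEM with 10% fetal bovine serum. The 3 groups had 3 libraries each. The control group stayed in iso-osmolar medium (called control medium here), the low-intensity group received medium with 200 mM sucrose (500 mOsm in all) and the high-intensity group medium with 300 mM sucrose (600 mOsm in all), for 3 h. Polyadenylated RNA was sequenced, and the libraries held between 21716042 and 26740832 counts on genes. The labels do not say whether libraries of a group came from separate cultures, so the p-values measure the spread between these libraries, which may be technical. As a check of the cell type, 11 of 14 fibroblast markers had a mean FPKM of at least 1 in iso-osmolar medium, while Dcn and Lum, which encode decorin and lumican, were under 0.2.

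Sucrose does not readily cross the plasma membrane, so hyperosmotic medium draws water out of cells and they shrink. Cells recover volume by taking up ions and then compatible osmolytes, and the transcription factor NFAT5 (TonEBP) drives the genes for osmolyte transporters and synthesis. Genes that belong to other tissues are normally kept silent in a fibroblast by the lack of their activators and by closed chromatin. A gene-level count does not tell whether reads on such a gene begin at its own start site or in a transcript that enters it from a neighbouring gene.

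The bases before the start sites of 5 members are shown because their levels differed most or were paired. Ctrb1 had the highest level at 500 mOsm, Fpr1 and Fpr2 start next to each other and are read away from each other, Areg held a cAMP response element, and Fam166a was higher at 600 than at 500 mOsm. Each run holds the 250 bases before the RefSeq start site, 5′ to 3′ on the gene's strand, from build GRCm38.p6. Capitals mark a match, on either strand, to one of 7 motifs. They were the cAMP response element (TGACGTCA), the TATA box (TATAAA), the CCAAT box of the 5 letters in its name, the GC box (GGGCGG), AP-1 (TGANTCA), and the NF-kB and TonE consensus motifs. The positions are chr8:111691011-111691260 (minus strand) for Ctrb1, chr17:17883940-17884189 (minus) for Fpr1, chr17:17887574-17887823 (plus) for Fpr2, chr5:91139349-91139598 (plus) for Areg and chr2:25218495-25218744 (plus) for Fam166a.
Ctrb1: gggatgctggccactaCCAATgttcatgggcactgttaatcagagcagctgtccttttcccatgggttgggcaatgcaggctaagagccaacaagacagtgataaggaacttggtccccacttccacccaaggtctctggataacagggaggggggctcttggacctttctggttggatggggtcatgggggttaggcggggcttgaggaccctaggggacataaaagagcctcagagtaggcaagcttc
Fpr1: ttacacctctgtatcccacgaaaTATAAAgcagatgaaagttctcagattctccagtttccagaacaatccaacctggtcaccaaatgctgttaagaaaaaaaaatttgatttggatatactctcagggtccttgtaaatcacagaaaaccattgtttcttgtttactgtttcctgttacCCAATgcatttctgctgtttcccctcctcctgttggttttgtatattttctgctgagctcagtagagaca
Fpr2: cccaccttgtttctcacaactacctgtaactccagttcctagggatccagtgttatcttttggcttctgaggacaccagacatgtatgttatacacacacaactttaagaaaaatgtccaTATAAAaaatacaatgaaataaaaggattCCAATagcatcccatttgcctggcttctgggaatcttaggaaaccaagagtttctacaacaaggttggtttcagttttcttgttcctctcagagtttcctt
Areg: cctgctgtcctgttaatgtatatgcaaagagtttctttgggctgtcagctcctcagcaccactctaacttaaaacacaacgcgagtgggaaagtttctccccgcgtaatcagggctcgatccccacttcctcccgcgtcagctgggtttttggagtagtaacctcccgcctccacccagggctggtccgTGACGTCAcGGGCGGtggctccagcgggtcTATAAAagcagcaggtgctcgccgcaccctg
Fam166a: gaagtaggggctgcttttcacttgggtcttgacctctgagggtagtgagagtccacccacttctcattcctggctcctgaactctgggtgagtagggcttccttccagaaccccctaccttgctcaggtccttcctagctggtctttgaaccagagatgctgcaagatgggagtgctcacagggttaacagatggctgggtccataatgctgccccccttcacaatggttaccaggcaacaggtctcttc

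RefSeq start-site sequences lay within 500 bases of the listed start for 51 of the 82 members. In the window of 300 bases that runs from 250 before to 50 after the start site, the osmotic response element TonE was found in 2 of 51 members (3.92%) and in 6.34% of 6273 other near-silent genes. The AP-1 motif was found in 3.92% of members and 10.4% of the other near-silent genes. The cAMP response element was found in Areg and Cldn6 only, which is 3.92% against 1.20%, and the NF-kB motif in 9.80% against 4.13%. A GC box was present in 45.1% of members, 25.7% of other near-silent genes and 49.1% of 14205 coding genes. TATA box (21.6% and 20.9%) and CCAAT box (37.3% and 39.0%) matches were as frequent in members as in other near-silent genes to within 2 percentage points. TATA box matches were found in 13.02% of all coding promoters, AP-1 in 7.07%, TonE in 4.63%, NF-kB in 4.90%, the cAMP response element in 2.49% and the CCAAT box in 39.1%. The median member window had 56% G or C and 7 CpG, compared with 50% and 4 in other near-silent genes.

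Across the members the median of the mean FPKM was 0.0567 in control medium, 1.02 at 500 mOsm and 0.152 at 600 mOsm. Summed over the members, CPM (counts relative to the library's total) were 10.4, 10.7 and 13.1 in the iso-osmolar libraries, 260, 221 and 229 at 500 mOsm, and 45.2, 48.4 and 45.8 at 600 mOsm. The 3 groups did not overlap in this sum. Of the 82 members, 12 had no count in any iso-osmolar library, and 51 had 10 or fewer over the 3 libraries together. For 81 members every library at 500 mOsm lay above every iso-osmolar library, which the rule favours. The same was true of 20.1% of the 13082 genes with enough counts to be tested. The exception was Ngp. Most members stayed at low levels even at 500 mOsm, since 42 reached a mean FPKM of 1 and 9 a mean of 2. The highest and lowest libraries at 500 mOsm differed by more than 2 times in 9 members.

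**Figure D1:**
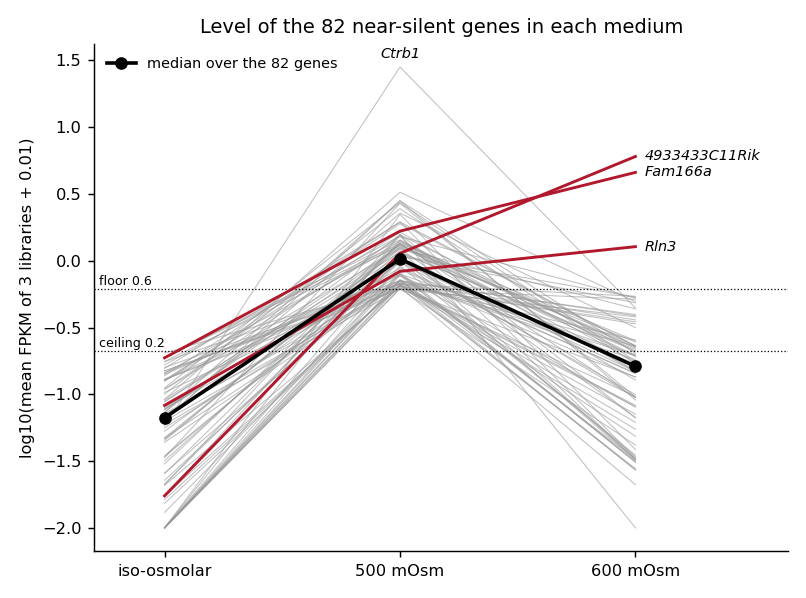
Mean FPKM of 3 libraries, as log10(FPKM + 0.01), for each of the 82 genes (thin lines) in control medium, at 500 mOsm and at 600 mOsm, with the median over the genes in black and the 2 limits of the rule dotted. Most lines peak at 500 mOsm, while 4933433C11Rik, Fam166a and Rln3 (red) had their highest mean at 600 mOsm, a difference from 500 mOsm that did not pass the test for Rln3.

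The members do not share a tissue. A usual tissue could be given for 56 members from general knowledge, after the members were known. The nervous system and retina had 15, blood and immune cells 11, epithelia and digestive glands 9, striated muscle 8, germ cells and pluripotent cells 8, liver 2, and endothelium, kidney and lung 1 each. The remaining 26 were not assigned. On 12 lists of marker genes of other tissues, 168 of 203 genes were near-silent in control medium and 8 of these (4.76%) were members. The share over all near-silent genes was 0.784%. The lists were made with earlier results of these data known, so the 4.76% only describes them and shows no excess. No gene of the immediate early, inflammatory, integrated stress response or p53 lists was a member. Only 2, 12, 3 and 2 genes of these lists were near-silent in control medium, too few to tell from the 0.784% of all near-silent genes. Most immediate early genes (26 of 29) were already at a mean FPKM of at least 1 in control medium. Of the 16 osmoadaptive genes listed only Aqp2 was a member. Hspa1a, on the same list, met both limits with mean FPKM of 0.0719 and 2.08, but its symbol is of a family left out.

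Among genes of epithelia and digestive glands, Ctrb1 stood far above every other member. Ctrb1 (ENSMUSG00000031957, minus strand of mm10 chromosome 8, from 111686510 to 111691010) encodes chymotrypsinogen B, a protease precursor of the exocrine pancreas. It had 1 count in each iso-osmolar library, 678, 635 and 607 counts at 500 mOsm, and 16, 5 and 7 at 600 mOsm. Its mean FPKM of 28.2 ± 2.80 (SD, n = 3) at 500 mOsm compares with 3.25 for the next member. Other genes of the exocrine and endocrine pancreas did not move with it, as Ins1, Ins2, Gcg, Pdx1 and Amy2a5 had no count at 500 mOsm and the 10 other pancreas markers summed to FPKM of 0.960 to 1.47 in control medium and 1.21 to 1.73 at 500 mOsm.

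Lgals4, an intestinal galectin, had 3, 0 and 2 counts in control medium, 103, 90 and 105 at 500 mOsm and 8, 7 and 4 at 600 mOsm. Best2, an anion channel of the bestrophin family, had 3, 1 and 4 counts, then 129, 121 and 113, then 10, 19 and 17. Cdh1 encodes E-cadherin, the adhesion protein of epithelial junctions. Its counts were 0, 1 and 0 in control medium, 90, 91 and 86 at 500 mOsm and 2, 1 and 4 at 600 mOsm, and no other epithelial marker on the list of 24 met the rule. In each of the 3 genes the libraries at 500 mOsm lay above all others. The 23 other epithelial markers summed to FPKM of 8.92 to 10.7 in control medium, 11.8 to 13.8 at 500 mOsm and 9.38 to 10.2 at 600 mOsm. Of these markers 6 had no count at 500 mOsm, while Ovol1 had 0, 1 and 1 counts in control medium and 9, 16 and 17 at 500 mOsm. Their part in the level of Cdh1 was not tested. The other members of this tissue were Areg (an EGF receptor ligand), Asprv1, Cldn6, Cym (chymosin) and Muc2 (a secreted mucin), with mean FPKM of 0.697 to 1.56 at 500 mOsm.

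Among genes of blood and immune cells, Cd79a, which encodes a signalling chain of the B cell receptor, had 7, 2 and 1 counts in control medium, 95, 99 and 110 at 500 mOsm and 5, 4 and 9 at 600 mOsm. The gene of its partner chain, Cd79b, was not a member and was looked at after its values were seen. It had no count in control medium, 17, 18 and 18 counts at 500 mOsm and 0, 1 and 1 at 600 mOsm, with a mean FPKM of 0.482 at 500 mOsm. Of the 18 lymphoid markers that were not members, 9 had no count at 500 mOsm, among them Cd3g, Cd8a, Cd2, Zap70, Ms4a1, Pax5, Il2ra and Ifng, and the 18 together summed to FPKM of 0.0711 to 0.0958 in control medium and 0.625 to 0.835 at 500 mOsm. Lck, a kinase of T cell receptor signalling, had 4, 3 and 1 counts, then 38, 39 and 30, then 15, 22 and 14.

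The formyl peptide receptor genes Fpr1 and Fpr2, whose products guide neutrophils, lie 3.88 kb apart on chromosome 17. Fpr1 had 1, 1 and 0 counts in control medium, 66, 25 and 27 at 500 mOsm and 0, 2 and 0 at 600 mOsm. Fpr2 had 59, 39 and 36 counts at 500 mOsm and none in the other 6 libraries, so that its summed CPM were at least 40.9-fold higher than in control medium and at least 42.3-fold higher than at 600 mOsm, against a floor of 3 counts per group. The first 500 mOsm library was the highest for both genes. Gp5, a platelet glycoprotein, had 4, 5 and 11 counts in control medium, 117, 101 and 109 at 500 mOsm and 1, 0 and 3 at 600 mOsm.

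Ngp, which encodes a neutrophil granule protein, met the floor through 1 library. It had 5, 10 and 42 counts at 500 mOsm, 5, 2 and 3 in control medium and 17, 16 and 11 at 600 mOsm. Some other genes of neutrophils and granules differed between the same libraries: S100a8 had 20, 46 and 99 counts at 500 mOsm, S100a9 had 19, 56 and 143, Elane had 10, 37 and 104, and Lyz2 had 112, 197 and 486. Other myeloid markers did not follow this order, as Cd14 had 264, 348 and 296 counts there, Csf1r had 373, 381 and 367, and Cd68 had 38, 47 and 40. Spi1 had 1, 1 and 0 counts in control medium and 18, 17 and 27 at 500 mOsm, while Fcer1g had 6, 10 and 11 and then 5, 3 and 1. The 18 myeloid markers measured, none of them a member, summed to FPKM of 24.7 to 37.4 in control medium, 20.5 to 52.98 at 500 mOsm and 27.3 to 54.5 at 600 mOsm, with Lyz1 and Il1a at 0 at 500 mOsm. Their part in the level of Ngp was not tested, and in such bulk samples more cells of a type and more RNA per cell cannot be told apart. Without the third 500 mOsm library Ngp would fall under the floor.

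Pecam1, the adhesion molecule CD31 of endothelium and platelets, was the second highest member. Its counts were 4, 5 and 11 in control medium, 265, 281 and 314 at 500 mOsm and 31, 53 and 35 at 600 mOsm. None of the 12 other endothelial markers reached the floor at 500 mOsm, Tie1 had no count there, and the 12 together summed to FPKM of 0.453 to 0.565 in control medium and 0.832 to 1.09 at 500 mOsm. Cdh5, which encodes VE-cadherin, had a mean FPKM of 0.140 in control medium and 0.143 at 500 mOsm. Other endothelial markers had more counts at 500 mOsm at far lower levels than Pecam1, as the receptor gene Kdr had no count in control medium and 11, 6 and 10 at 500 mOsm, Tek had 1, 0 and 0 and then 12, 12 and 13, and Sox18 had none and then 6, 6 and 3. Their part in the level of Pecam1 was not tested.

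Among genes of the nervous system, Cldn11, a tight junction protein of myelin, had no count in control medium, 127, 101 and 84 counts at 500 mOsm and 2, 0 and 2 at 600 mOsm. Its summed CPM were at least 95.3-fold higher at 500 mOsm than in control medium, the largest bound among the 12 members with no iso-osmolar count, and the smallest was 8.86-fold. Cadm4, a cell adhesion molecule, had 2, 5 and 7 counts, then 148, 140 and 117, then 8, 8 and 9. Prph, the intermediate filament peripherin of peripheral neurons, kept more of its level at 600 mOsm, with 19, 28 and 22 counts after 82, 67 and 66 at 500 mOsm. The myelin lipid genes Fa2h and Gal3st1 were members too. None of the 10 glial or 23 neuronal markers listed was, but these lists are too short to tell from the 0.784% of all near-silent genes. The glial markers summed to FPKM of 0.133 to 0.192 in control medium, 0.407 to 0.439 at 500 mOsm and 0.300 to 0.510 at 600 mOsm. The neuronal markers summed to 19.9 to 20.6, 39.3 to 44.9 and 16.15 to 17.6. Arc alone, on the neuronal list, had mean FPKM of 5.41, 24.8 and 3.13.

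Among genes of striated muscle, Myf6, a myogenic transcription factor, was uneven between libraries with 28, 8 and 23 counts at 500 mOsm and 1 count in all in each other group. Kcnj12, an inward rectifier potassium channel, had 10, 13 and 4 counts in control medium, 88, 112 and 90 at 500 mOsm and 0, 2 and 2 at 600 mOsm. The glycogen phosphorylase gene Pygm and the membrane repair gene Trim72 reached mean FPKM of 1.89 and 1.05 at 500 mOsm. None of the 26 other muscle markers met the rule, and Myog had no count in any library. The 26 summed to FPKM of 19.8 to 21.5 in control medium, 19.8 to 21.04 at 500 mOsm and 17.2 to 19.99 at 600 mOsm. Most of this was Tnnt2, with mean FPKM of 15.9, 15.9 and 14.6, so the sum says little about the silent markers. Single markers of the list differed. The myoglobin gene Mb had 0, 1 and 0 counts in control medium, 12, 6 and 16 at 500 mOsm and 3, 2 and 2 at 600 mOsm. Tnni1 had 3, 4 and 2, then 14, 19 and 28, then 10, 4 and 4. Tnnt3 had 1, 0 and 2, then 9, 8 and 12, then 0, 0 and 1. Myh3 had 0, 1 and 0, then 12, 8 and 5, then 1, 0 and 2. Markers without such a rise included Nppb, with 50, 38 and 37, then 18, 13 and 14, then 8, 11 and 4. Myh1 was another, with 7, 7 and 8, then 3, 7 and 8, then 5, 6 and 6. Their part in the muscle members was not tested. Among germ cell genes, Stra8, which is needed for entry into meiosis, had no count in control medium, 42, 36 and 47 at 500 mOsm and 0, 3 and 0 at 600 mOsm. The 17 other germ cell markers summed to FPKM of 0.619 to 0.664 in control medium, 0.953 to 1.12 at 500 mOsm and 1.04 to 1.16 at 600 mOsm. Of these, Dazl, Tnp1 and Piwil1 had no count at 500 mOsm. Their part in the level of Stra8 was not tested. Aqp2, the vasopressin-regulated water channel of the kidney collecting duct, had 2, 4 and 6 counts, then 21, 30 and 22, then 4, 11 and 10. Its groups at 500 mOsm and in control medium did not overlap, which the rule favours and which held for 20.1% of all genes tested. The 12 other kidney markers summed to FPKM of 61.3 to 67.7 in control medium, 95.8 to 110 at 500 mOsm and 90.3 to 93.3 at 600 mOsm. Most of this was Aqp1, with mean FPKM of 62.1, 95.1 and 87.6, and 4 of the 12 had no count at 500 mOsm. Their part in the level of Aqp2 was not tested.

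Members without an assigned tissue included A3galt2, a galactosyltransferase gene with 5, 2 and 8 counts in control medium, 249, 238 and 244 at 500 mOsm and 8, 5 and 7 at 600 mOsm. Ttc21a had 2, 3 and 2 counts, then 296, 299 and 268, then 7, 9 and 10. At 600 mOsm their mean FPKM was 0.0807 and 0.0856, under the median of the members.

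**Figure D2:**
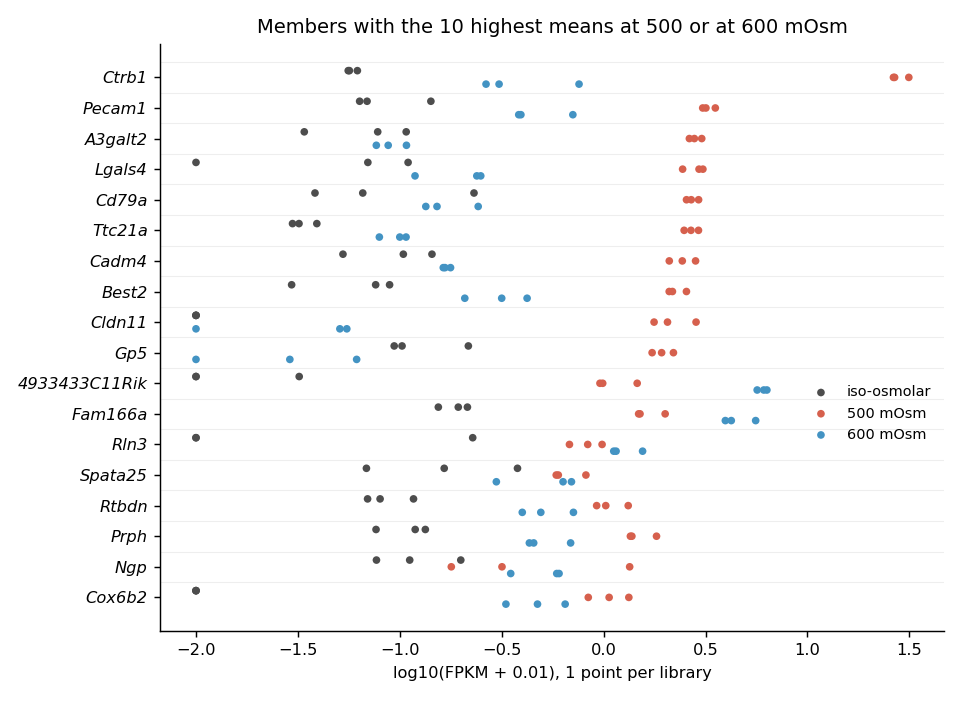
FPKM of each library, as log10(FPKM + 0.01), for the 18 members with the 10 highest means at 500 mOsm or the 10 highest at 600 mOsm. Libraries at 500 mOsm (red) lie to the right of the others except in 4933433C11Rik, Fam166a and Rln3, where those at 600 mOsm (blue) do, and in Ngp and Spata25, where the 2 groups mix.

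The question for 600 mOsm was whether the members stayed on at the higher intensity. Only 3 members had a mean FPKM of at least 0.6 at 600 mOsm (4933433C11Rik, Fam166a and Rln3), and 29 had one of at least 0.2. The 600 mOsm mean lay between the other 2 means in 67 members, at or under the iso-osmolar mean in 12 and above the 500 mOsm mean in 3. As a measure of what was kept, the rise from control medium to 600 mOsm was divided by the rise to 500 mOsm. The median share was 7.52% (SD 1.90 over the medians with single 600 mOsm libraries), with quartiles of 2.30% and 14.2%. The share was under 10% in 48 members and at least 50% in 7. These shares have the chosen 500 mOsm level in the denominator.

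Counts were compared between groups by the quasi-likelihood test of edgeR on all genes with enough counts, with Benjamini-Hochberg adjustment over the 13082 genes. Of the 82 members, 78 entered the fit and Gm8444, Prok1, Myf6 and Myl7 did not. Compared with control medium, 30 members were higher at 600 mOsm at an adjusted p under 0.05, against 15.1% of all genes tested. Only Gp5 and Kcnj12 were lower, against 20.0% of all genes. With the 2 groups fitted alone the number higher was 16 instead of 30. The median fitted log2 difference over the 78 was 1.79, and 1.27 over 73 members when those with no iso-osmolar count were set to their bound or left out, beside 0.01 over all genes. Members were chosen for low iso-osmolar values and passed the filter mainly through the 500 mOsm libraries, so the counts describe the members and support nothing about them as a class. In 40 of the 82 members every 600 mOsm library lay above every iso-osmolar library, as in 21.6% of all genes tested.

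Compared with 500 mOsm, 72 members were lower at 600 mOsm, 2 were higher and 4 did not pass the test (Ngp, Tmem180, Spata25 and Rln3). Over all genes 17.2% were lower and 11.9% higher. The median fitted log2 difference of the 78 was -3.06, beside 0.01 over all genes. The 500 mOsm libraries are those that chose the members, so a lower level elsewhere follows in part from the choice. Of the 72, 26 were still higher than in control medium, 44 did not pass the test against it and 2 were lower. Every 500 mOsm library lay above every 600 mOsm library in 77 of the 82 members, as in 22.9% of all genes tested.

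The differences of single members from the other 2 groups are given next as values. Where a call is named, it comes from the fit above and only describes the member, since both groups helped to choose it. The log2 difference of Ctrb1 between 600 and 500 mOsm was -5.99 (SE 0.21), and -6.62 without 600 mOsm replicate 1. Its 28 counts at 600 mOsm against 3 in control medium gave a ratio of 9.04 after scaling by library totals, with an exact 95% counting interval of 2.79 to 46.5. The fitted log2 difference from control medium was 3.05, and 2.42 without 600 mOsm replicate 1. Pecam1 was at -2.74 (SE 0.20) relative to 500 mOsm and at 2.53 (SE 0.35) relative to control medium on the log2 scale. A3galt2 was at -5.07 (SE 0.23) relative to 500 mOsm and at 0.38 (SE 0.44) relative to control medium, which is within the error. The difference between 600 mOsm and control medium did not pass the test in A3galt2, Cldn11, Gal3st1, Nfe2l3 and Trim72.

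Gp5 and Kcnj12 went under their iso-osmolar level. At 600 mOsm Gp5 fell by 2.25 on the log2 scale relative to control medium (SE 0.70), and Kcnj12 by 2.67 (SE 0.68). Both rest on few counts, as the iso-osmolar libraries held 20 and 27 counts in all and the 600 mOsm libraries 4 and 4. With a library left out, the log2 difference of Gp5 ranged from -3.42 to -1.72, and it no longer passed the test without iso-osmolar replicate 3, 600 mOsm replicate 1 or 600 mOsm replicate 2, while that of Kcnj12 passed in each case. Neither passed with limma on log2(FPKM + 1). The members that held least of their rise, among the 50 with at least 30 counts in every 500 mOsm library, were Kcnj12 (-9.76%), Nfe2l3 (-8.03%), Gp5 (-5.75%), Gal3st1 (-3.73%) and Trim72 (-3.65%).

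Among the same 50 members the 5 with the largest share held included 4933433C11Rik, Fam166a and the kinase genes Mast1 and Lck. Mast1, a neuronal kinase, had 4, 8 and 4 counts in control medium, 105, 78 and 73 at 500 mOsm and 41, 37 and 60 at 600 mOsm, and held 52.8%. Its values are uncertain, since it shares 1341 bases at 100% identity with the expressed gene Dnase2a, which overlaps it. Lck held 46.9%. On the log2 scale Mast1 and Lck at 600 mOsm were at 3.05 and 2.60 relative to control medium, with SE of 0.35 and 0.47, and at -0.80 and -0.96 relative to 500 mOsm, with SE of 0.22 and 0.29.

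4933433C11Rik and Fam166a were neighbours and rose further. 4933433C11Rik had 0, 0 and 1 counts in control medium, 66, 49 and 46 at 500 mOsm and 285, 234 and 303 at 600 mOsm. Its mean FPKM was 1.13 ± 0.281 at 500 mOsm and 6.02 ± 0.335 at 600 mOsm (SD, n = 3), a log2 difference of 2.44 (SE 0.17). Fam166a had 5, 4 and 5 counts, then 41, 60 and 43, then 151, 105 and 118, with a log2 difference of 1.48 between 600 and 500 mOsm (SE 0.18). In both genes the 3 groups did not overlap. Both lie on chromosome 2, 4.11 kb apart on opposite strands, beside the tubulin gene Tubb4b. 4933433C11Rik starts 7.52 kb past the end of Tubb4b on the same strand, and Fam166a runs towards Tubb4b and overlaps it on the opposite strand. The library protocol has no step that marks strand, so reads in the overlap cannot be assigned to a strand. Mean FPKM of Tubb4b was 275 in control medium, 274 at 500 mOsm and 337 at 600 mOsm.

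Rln3, which encodes the neuropeptide relaxin-3, had 3, 0 and 0 counts in control medium, 15, 14 and 11 at 500 mOsm and 17, 16 and 26 at 600 mOsm. Its 59 counts at 600 mOsm against 3 in control medium gave a ratio of 19.0 after the same scaling (exact 95% counting interval 6.21 to 94.995). The 3 control counts were all in iso-osmolar replicate 1, and the fitted log2 difference of 4.11 ranged from 3.55 to 7.35 with a library left out, the highest without that library. Between 600 and 500 mOsm the log2 difference of 0.65 (SE 0.38) did not pass the test. Cox6b2, a testis form of a cytochrome c oxidase subunit, had no iso-osmolar count and 9, 6 and 5 counts at 600 mOsm, at least 6.46-fold higher. Spata25 was at a mean FPKM of 0.532 ± 0.214 at 600 mOsm and 0.658 at 500 mOsm. It had the highest iso-osmolar mean of the members, 0.194.

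By the same limits, 13 near-silent genes reached a mean FPKM of 0.6 at 600 mOsm, against 82 at 500 mOsm. The other 10 included Rpl3l, a muscle ribosomal protein gene (mean FPKM 1.75 at 600 mOsm), Gast, the gastrin gene (0.871), and Trpv2, a cation channel gene (0.795). In the opposite direction, 4 coding genes were at the floor in control medium and under the ceiling at 500 mOsm, and 5 at 600 mOsm.

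Grouped by usual tissue, the median share of the rise held at 600 mOsm was 2.72% in the 11 blood and immune genes, 2.96% in the 9 epithelial and digestive genes and 3.05% in the 8 muscle genes. It was 12.04% in the 15 nervous system and retina genes and 14.2% in the 8 germ cell and pluripotency genes. The ranges overlapped, and the differences between tissues were not tested.

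**Figure D3:**
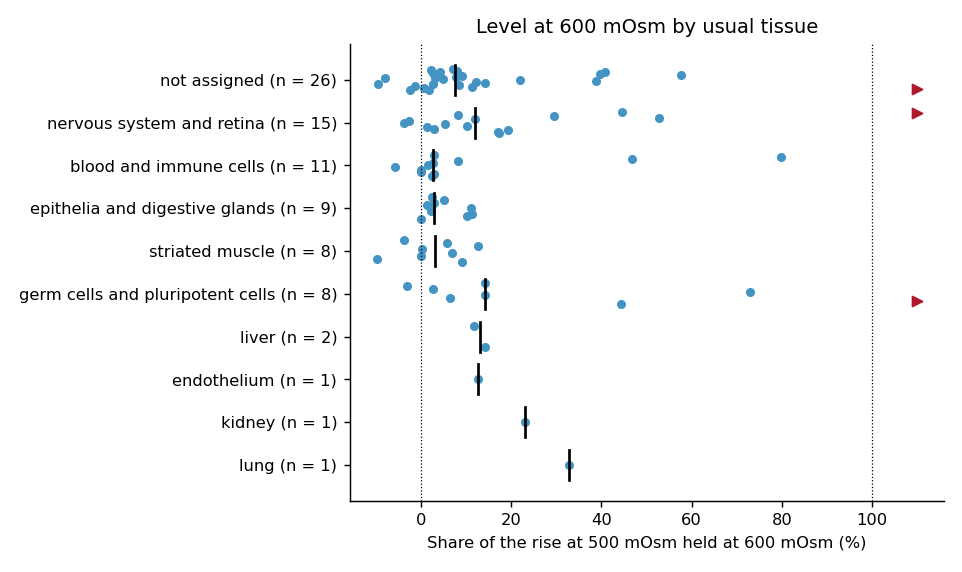
Share of the rise at 500 mOsm that was held at 600 mOsm, in percent, for each of the 82 members (points) by usual tissue, with black bars at the medians, and red arrowheads for 3 members above 110% (4933433C11Rik, Fam166a and Rln3, at 537%, 298% and 159%). Most members of every tissue with 8 or more genes lie under 50%.

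The position of the members was not used to choose them. An expressed gene (mean FPKM of at least 1 at 500 mOsm) ended upstream of the member on the same strand within 50 kb in 55 of 82 members (67.1%, 95% Wilson interval 56.3% to 76.3%). The same held for 17.1% of 10377 other near-silent coding genes and for 38.1% of 9625 coding genes at or over the floor in control medium. Within 10 kb the shares were 31.7% of members and 5.35% of other near-silent genes. The shares in the other orientations also differed: an expressed gene lay downstream and facing the member in 51.2% against 18.2%, downstream on the same strand in 48.8% against 17.3%, and upstream and read away from it in 41.5% against 14.0%. With overlapping genes included, 70 members (85.4%) had an expressed gene that was read towards or across them, against 32.3% of the other near-silent genes and 64.4% of the genes at or over the floor in control medium. For those 9625 genes the shares were 37.3% facing, 37.7% downstream on the same strand and 36.9% upstream and read away, and the last lies inside the members' interval of 31.4% to 52.3%. The 12 members with none included Myom1, Nmur1, Stra8, Muc2, Fam46c, Grap, Tbc1d21, Kcnj12, Prok1, Myf6 and Fa2h. Other near-silent genes include large families in gene clusters where few genes are expressed, and the shares were not matched for this. The intervals treat genes as independent, while 15 members lay within 100 kb of another and can share a neighbour, so they are too narrow.

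**Figure D4:**
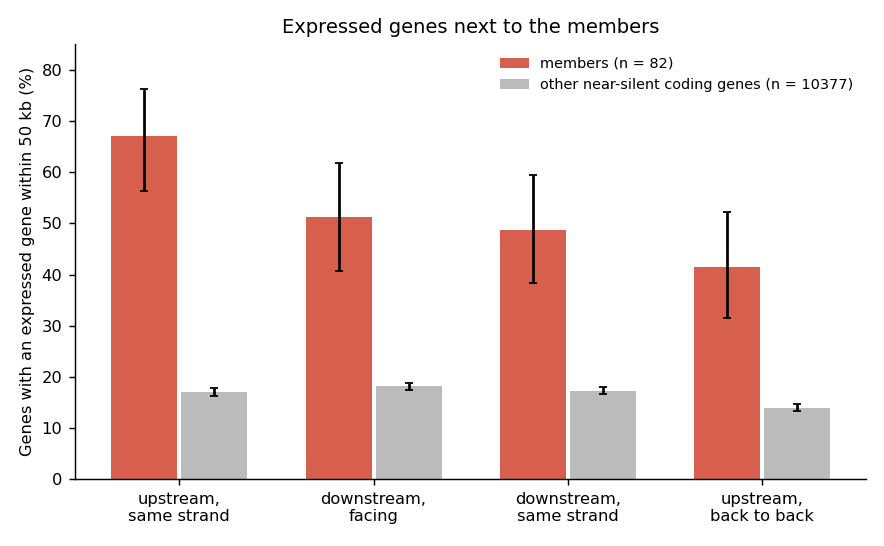
Share of genes, in percent, with an expressed gene within 50 kb in each of 4 orientations, for the 82 members (red) and 10377 other near-silent coding genes (grey), with 95% Wilson intervals. In each orientation the interval of the members lies above that of the other genes, and the upstream gene on the same strand was the most frequent, at 67.1%. The intervals treat genes as independent, while 15 members lie within 100 kb of another. Genes at or over the floor in control medium are not drawn.

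The levels of the 55 upstream genes were examined next. Of these, 2 were members themselves (Atcay before Nmrk2 and Prok1 before Cym) and counted as expressed through the level that chose them. With expressed taken as a mean FPKM of at least 1 in control medium, an alternative added after the data were seen, the share was 62.2% of members (51 of 82, interval 51.4% to 71.9%) and 16.9% of other near-silent genes. The median distance of the 55 to the member was 11.03 kb and their median mean FPKM at 500 mOsm was 29.0, and 52 of them were above the member, whose level was 3.80% of the neighbour's in the median. At 500 mOsm 46 of the 55 were within 1.5-fold of their iso-osmolar level. Of the 54 tested, 13 were higher and 6 lower at 500 mOsm than in control medium (edgeR), beside 13.2% higher and 14.8% lower over all genes, and 35 did not pass the test. At 600 mOsm 15 of the 54 were higher and 16 lower than in control medium, beside 15.1% and 20.0% of all genes, and 23 did not pass. Bcar1, a scaffold of focal adhesions, ends 19.5 kb before Ctrb1 and had mean FPKM of 223, 302 and 252 in control medium, at 500 and at 600 mOsm, a log2 difference of 0.44 at 500 mOsm (SE 0.07, adjusted p = 0.000309, edgeR). Rps19, a ribosomal protein gene, ends 7.58 kb before Cd79a and had 177, 187 and 216, and its difference at 500 mOsm did not pass the test (log2 0.08, SE 0.08).

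Phc2, Ech1 and Asna1 likewise end upstream of A3galt2, Lgals4 and Best2, and Asna1 lies 3.53 kb away with mean FPKM of 391, 411 and 452. Cdh3, the P-cadherin gene, ends 46.4 kb before Cdh1 and had 35.3, 41.5 and 49.3. At 500 mOsm Cdh3 was higher than in control medium (log2 0.24, adjusted p = 0.00162, edgeR) and Phc2 lower (log2 -0.36, adjusted p = 0.00145), while Asna1 and Ech1 did not pass the test. A few upstream genes differed more at 500 mOsm, with log2 differences of 1.05 for Skil, 1.38 for Id1 and 2.56 for H2-DMa. Skil, before Cldn11, had mean FPKM of 3.79, 7.85 and 2.11, Id1, before Cox4i2, had 36.1, 94.0 and 28.8, and H2-DMa, before H2-DMb2, had 0.631, 3.76 and 0.794. Csrnp1, an immediate early gene, faces Ttc21a from 3.37 kb downstream and had 13.8, 132 and 11.4. These examples were chosen after their values were seen.

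Members with an upstream gene had a median of 1.14 FPKM at 500 mOsm and 0.184 at 600 mOsm, and held a median of 8.17% of the rise. The 27 members without had 0.784, 0.0846 and 3.20%. Both classes held members higher at 600 mOsm than in control medium, 23 of 54 tested and 7 of 24 tested, beside 15.1% of all genes tested, and all were chosen for low control values. The table holds reads on genes and none between them, so whether reads on a member came from transcripts that began in a neighbour was not tested. In 15 members (18.3%) another member lay within 100 kb, against 1.16% of other near-silent genes. These were Fpr1 and Fpr2, Nmrk2 and Atcay, Cym and Prok1, 4933433C11Rik and Fam166a, Mast1, Rtbdn and Best2, Kcnj12 and Tnfrsf13b, and Cldn6 and Zscan10.

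Near-silent genes were also examined as sums. The 10377 near-silent genes under the floor together gave 465 to 508 CPM in the iso-osmolar libraries, 1030 to 1221 at 500 mOsm and 704 to 797 at 600 mOsm. Because choosing genes for low iso-osmolar values favours a rise, the near-silent genes were chosen again on the 600 mOsm libraries alone, an alternative added after the data were seen. The 10372 coding genes with a mean FPKM under 0.2 at 600 mOsm summed to 576, 545 and 608 CPM in control medium and 1372, 1160 and 1241 at 500 mOsm. Members were not taken out of this set, which held all but the 29 with a mean FPKM of at least 0.2 at 600 mOsm. Part of each sum at 500 mOsm thus comes from genes chosen for their level there. The sums did not overlap and their means had a ratio of 2.18, which was not tested. The ratio was 2.595 for genes with an expressed upstream gene within 10 kb, 3.22 for 10 to 50 kb and 1.82 for those with none within 50 kb. Without the 10 genes that rose most in each class it was 2.15, 2.85 and 1.71. The ratios of the classes were not tested against each other.

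**Figure D5:**
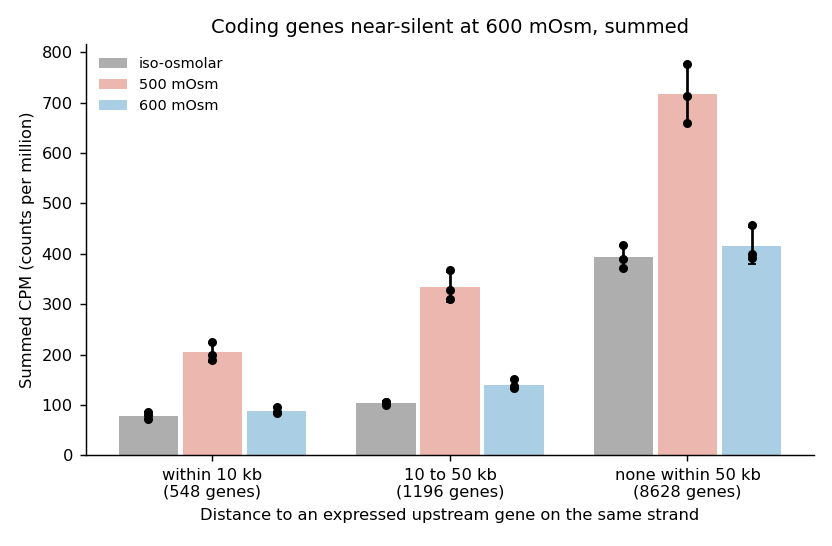
Summed CPM of coding genes with a mean FPKM under 0.2 at 600 mOsm, by distance to an expressed upstream gene on the same strand. Members under 0.2 at 600 mOsm are included. Bars are means of 3 libraries, error bars SD and points libraries, and in each class the 500 mOsm libraries (red) lie above the iso-osmolar (grey) ones, with the ratio of means largest for 10 to 50 kb at 3.22.

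Several members cannot be measured cleanly from gene counts. By alignment of their transcripts, 15 members shared at least 200 bases at 95% identity with another gene, and for 6 of them that gene had a mean FPKM of at least 1 at 500 mOsm: Gm8444 with Rpl35, H2-DMb2 with H2-DMb1, Mast1 with Dnase2a, Myom1 with Myl12a, Spata25 with Zswim1 and St6galnac2 with 1810032O08Rik. Their values are uncertain, and 76 members remained without them. An expressed gene overlapped 7 members, 6 of them on the opposite strand. The smallest values inside the floor were those of Ngp (0.603), Tbc1d21 (0.604) and Fa2h (0.606), and just outside it lay H2afb1 (0.599), Pou4f3 (0.598) and Pbx4 (0.596). The highest iso-osmolar means inside the ceiling were those of Spata25 (0.194), 4933413G19Rik (0.178) and Fam166a (0.178), and just outside it lay Lims2 (0.201), 2610528A11Rik (0.205) and Gm6020 (0.209). When the genes were chosen on 2 replicate numbers, 87, 91 and 93 met the limits, and 74, 66 and 70 of them were at or over the floor in the 500 mOsm library left out.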

How the data were processed

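RNA of MEFs was sequenced as 3 libraries for each of 3 treatments. Per the labels, mRNA was captured with poly-T beads and primed with random hexamers, and the submitters' processing notes name STAR, CASAVA 1.8 and mm10. The counting tool and its use of strand are not given in the sources used here. The authors deposited counts of reads per gene without normalization and FPKM made from them with the gene length and the library total. The table also holds the authors' group means, fold changes and p-values, which were not used. Libraries held 21716042 to 26740832 counts, so 3 counts correspond to 0.112 to 0.138 CPM (counts relative to the library's total), and intervals and floors cover counting error only.

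The members, gene lists and usual tissues were chosen with earlier results of these data known. Counts were tested in R 4.3.3 with edgeR 4.0.16 (TMM, filterByExpr, quasi-likelihood, all 9 libraries in one fit, Benjamini-Hochberg over 13082 genes, threshold 0.05). On simulated counts 76% of genes changed by log2 1 and 94% of those changed by log2 2 were recovered. Alternatives used limma 3.58.1, DESeq2 1.42.0, other filters and scalings, and each library left out. Shared sequence was searched with blastn 2.17.0 against GENCODE M21 transcripts. Named genes were the 10 highest at 500 and at 600 mOsm, the 5 with the largest and smallest share held among those with at least 30 counts in every 500 mOsm library, those on a list, those beside a threshold, and their upstream neighbours; others are named as examples chosen after their values were seen. The share of members without sequence shared with an expressed gene and the choice of near-silent genes on the 600 mOsm libraries were added after the data were seen, as was the share of neighbours expressed in control medium. A few genes that these rules name are not reported here.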

Additional observations from a re-analysis of the deposited data

How the results depend on the processing

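The number of members was 82 and fell to 42 with a floor of 1 and to 50 when every library had to meet both limits. It was 60 with a ceiling of 0.1 and 79 to 88 with a library left out. Of 78 members tested, 30 were higher at 600 mOsm than in control medium, and the count was 16 with the 2 groups fitted alone and 23 to 30 with a library left out. For 72 lower at 600 than at 500 mOsm the range with a library left out was 67 to 74. A minimum of 10 counts in every library left 1 member to test, so the counts became 0 and 1. DESeq2 gave 27 and 68. The median share held ranged from 6.09% to 8.52% with a library left out. The share of members with an expressed upstream gene was 31.7% within 10 kb and 79.3% within 100 kb, by the wider or narrower window itself. Deviations from the group means had a mean correlation of -0.24 over 9 pairs of libraries with the same number, from -0.69 to 0.61. For different numbers it was 0.12 over 18 pairs, from -0.32 to 0.60. With 3 libraries behind each group mean the pairs are not independent, so these values cannot show whether the numbers pair the libraries. With the replicate block the counts were 25 and 69.

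Of 1034 recomputed values of single named genes, 968 kept their direction and side of the threshold, 42 lost the call, 16 gained it and 8 changed sign. None of the 8 had passed the test. With a library left out, the log2 difference between 600 mOsm and control medium ranged from -0.62 to 0.45 for 4933413G19Rik, from -0.013 to 0.85 for A3galt2 and from -0.56 to 0.65 for Tbc1d21. That between 600 and 500 mOsm ranged from -0.68 to 1.05 for Ngp, whose highest value was without 500 mOsm replicate 3, and from -0.47 to 0.016 for Spata25. Ngp was at 0.13 with limma on log2(FPKM + 0.1). The cause was not tested. With 51 members at 10 or fewer iso-osmolar counts in all, depth limits every fold against that group.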
